A study of Mus musculus with 114 samples.

Results

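The genes described here were the 3 uncoupling proteins (Ucp1, Ucp2, Ucp3) and 6 genes of the brown and beige fat programme (Ppargc1a, Ppargc1b, Prdm16, Dio2, Elovl3, Cidea). They were taken by their symbols, and all 9 were among the 29132 genes of the deposited table. Of these 9 genes, 6 passed the filter on low values (a mean of log2(CPM + 1) above 2 over all mice, where CPM is the reads of a gene scaled to a library total of 1e+06) and entered the test, which covered 10343 genes. Ucp1, Dio2 and Elovl3 were below that filter.

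RNA was sequenced from perigonadal adipocytes of 38 male C57BL/6J mice, the floating fraction after collagenase digestion of the fat pad. From 6 weeks of age the animals received either a diet in which fat gave 60% of the energy (HFD) or control chow (CD) for 8, 20 or 34 weeks, and every mouse was fasted before collection. Each group held 6 mice, except CD at 34 weeks with 8, and each library carried 9275711 to 15480388 counted reads. Mice of different weeks were collected at different times, so the week of diet, the age of the mouse and the collection cannot be told apart.

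Uncoupling proteins are carriers of the inner mitochondrial membrane. UCP1 lets protons return to the matrix without making ATP and is the defining protein of brown and beige adipocytes, whereas UCP2 is found in many cell types, immune cells among them, and UCP3 mainly in skeletal muscle, heart and brown fat. PGC-1α and PGC-1β (Ppargc1a, Ppargc1b) are coactivators that drive mitochondrial genes, and PRDM16 is a transcriptional regulator that sets and keeps the thermogenic identity of fat cells. The deiodinase of Dio2 makes active thyroid hormone inside the cell, ELOVL3 elongates very long chain fatty acids, and CIDEA is a lipid droplet protein. Perigonadal fat of the mouse is a white depot in which this programme is usually weak.

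Adipocyte markers were abundant in every library. The summed level of the 10 listed adipocyte markers ran from 26000 to 81600 CPM. Of the 10, 2, 7 and 8 were lower in HFD at 8, 20 and 34 weeks, and 1 (Lep) was higher at 8 and 20 weeks. For this and the following marker counts, the background was the share of all genes tested. It was 29.8%, 38.3% and 27.5% higher and 15.1%, 18.7% and 15.7% lower in HFD at the 3 weeks. Markers of other cells were also present. The summed level of 15 macrophage markers was 455 to 2140 CPM in CD and 1400 to 4570 CPM in HFD at 8 weeks, 1070 to 4530 and 6360 to 13300 CPM at 20 weeks, and 1470 to 16800 and 7450 to 22400 CPM at 34 weeks. Of these 15 markers, 12, 12 and 14 were higher in HFD at 8, 20 and 34 weeks and 1 was lower at 20 weeks, and the defining markers Cd68, Csf1r and Mpeg1 were detected in every group. Endothelial markers were higher in HFD for 10, 8 and 8 of 10 at the 3 weeks, and their summed level ran from 32.7 to 316 CPM in CD and from 96.7 to 545 CPM in HFD. Of 8 tested progenitor and fibroblast markers 5, 8 and 4 were higher in HFD, with summed levels of 231 to 2180 CPM in CD and 391 to 1990 CPM in HFD. In bulk libraries such as these, fewer cells of a type and less RNA per cell cannot be told apart.

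The upstream sequences of 4 genes are shown: Ucp2, Prdm16 and Ppargc1a because their differences between diets were the clearest and went in different directions, and Ucp3 because it is the neighbour of Ucp2. RefSeq gave a start for 6 of the 9 genes. Each sequence is the 250 bases before that start on the coding strand (build GRCm38.p6), and capitals mark matches to the motifs searched on both strands. Those were the full cAMP response element (TGACGTCA), the core that lies within it (TGACG), the nuclear receptor core (AGGTCA), the GC box (GGGCGG) and the TATA box (TATAAA). A match to the full cAMP response element also counts as a match to its core.
Ucp2: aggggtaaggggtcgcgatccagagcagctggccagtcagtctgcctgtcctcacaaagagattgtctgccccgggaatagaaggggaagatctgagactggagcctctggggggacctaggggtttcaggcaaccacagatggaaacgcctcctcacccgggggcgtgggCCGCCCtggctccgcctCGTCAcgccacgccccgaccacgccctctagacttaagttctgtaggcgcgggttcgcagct
Ucp3: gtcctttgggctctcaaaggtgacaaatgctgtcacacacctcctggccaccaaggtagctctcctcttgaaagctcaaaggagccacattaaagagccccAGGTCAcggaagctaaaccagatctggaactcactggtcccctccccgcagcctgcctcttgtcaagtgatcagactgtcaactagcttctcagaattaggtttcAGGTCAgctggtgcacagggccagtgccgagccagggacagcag
Ppargc1a: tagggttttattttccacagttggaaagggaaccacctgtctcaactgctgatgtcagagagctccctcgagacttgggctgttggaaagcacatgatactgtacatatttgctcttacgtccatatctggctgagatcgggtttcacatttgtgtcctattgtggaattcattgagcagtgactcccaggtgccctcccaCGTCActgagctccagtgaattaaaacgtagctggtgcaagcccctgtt
Prdm16: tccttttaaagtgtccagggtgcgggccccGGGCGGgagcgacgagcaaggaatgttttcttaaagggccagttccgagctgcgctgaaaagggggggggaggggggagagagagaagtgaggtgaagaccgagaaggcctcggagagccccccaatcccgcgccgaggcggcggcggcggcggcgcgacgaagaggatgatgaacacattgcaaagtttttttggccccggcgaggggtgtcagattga

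These windows lie at chr7:100493108-100493357 (Ucp2, plus strand), chr7:100472741-100472990 (Ucp3, plus), chr5:51567726-51567975 (Ppargc1a, minus) and chr4:154636874-154637123 (Prdm16, minus). The Ucp2 window held the cAMP core 58 to 62 bases and the GC box 74 to 79 bases before the start, both on the strand opposite to the gene, and the Ppargc1a window held the cAMP core 45 to 49 bases before it, also on the opposite strand. The Ucp3 window held the nuclear receptor core at 2 places and the Prdm16 window held the GC box at 1. Among all 32851 upstream windows of this length, 17.8% held the cAMP core, 14% the nuclear receptor core and 32.7% the GC box. The Prdm16 window had 22 CpG dinucleotides and the Ucp2 window 16, against 5 for Ppargc1a and 3 for Ucp3 and a median of 6 over all windows. Of the genes whose sequence is not printed, Dio2 held the full cAMP response element, found in 1.55% of windows, and the TATA box, found in 12.4%, and Ucp1 held the cAMP core and the nuclear receptor core. A match describes the letters only.

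On a per-length scale (mean CPM per kb of the longest principal transcript, over all 38 mice), Ucp2 was the most abundant of the 9 genes at 94.6 CPM per kb, ahead of Ucp3 at 9.16 and Cidea at 5.43. Ucp1 followed at 1.41 CPM per kb, a mean carried by a few mice, with a median of 0.212. Ppargc1b stood at 1.25, Ppargc1a at 0.912, Prdm16 at 0.576, Dio2 at 0.276 and Elovl3 at 0.168 CPM per kb. Among the uncoupling proteins, Ucp2 therefore had the highest mean level in these adipocyte fractions, by a margin that differed between groups. In CD at 8 weeks the means were 18.4 CPM per kb for Ucp2 and 9.18 for Ucp3. In HFD at 34 weeks they were 220 and 8.67. Which cells of the fraction held the Ucp2 RNA was not tested.

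**Figure D1:**
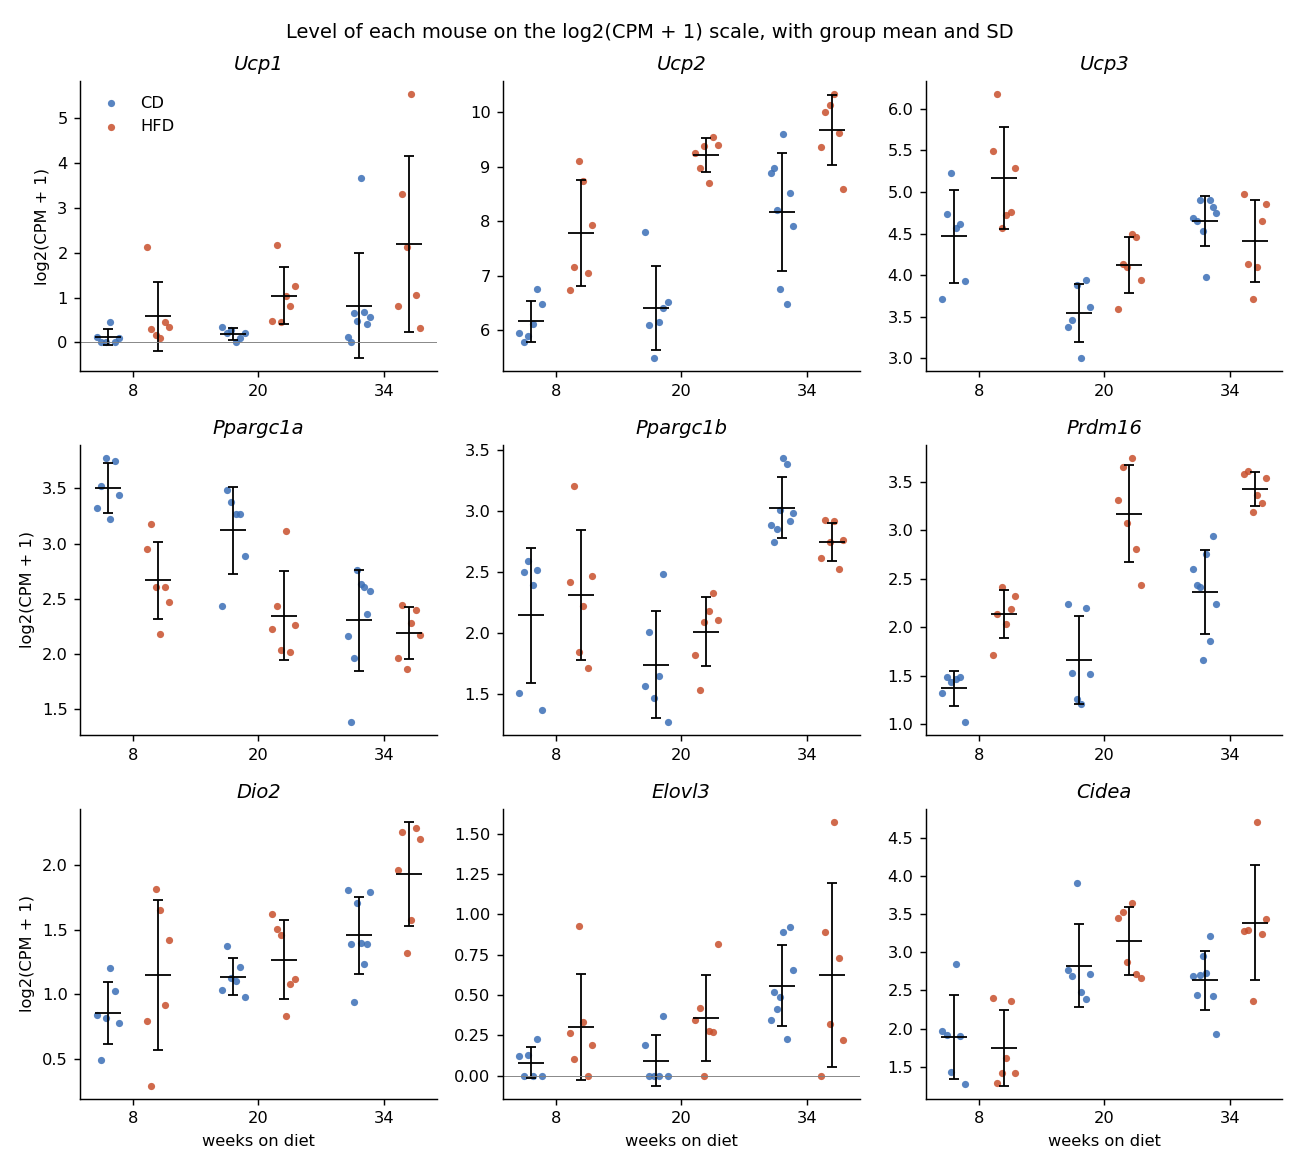
Level of each of the 9 genes in each mouse as log2(CPM + 1), by week of diet (8, 20, 34) and diet, with the group mean and SD. Ucp2 and Prdm16 sit higher in HFD at each week, Ppargc1a sits lower in HFD at 8 and 20 weeks, and Ucp1 is near 0 except in a few mice, the highest at 45.5 CPM.

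Ucp2 was higher in HFD at all 3 weeks. Its gene lies at chr7:100493337-100502020 on the plus strand (build GRCm38). At 8 weeks Ucp2 had 54.5 CPM in the lowest, 64.8 in the median and 108 in the highest CD mouse, against 106, 193 and 552 in HFD. At 20 weeks the values were 44.1, 77.2 and 223 CPM in CD and 415, 637 and 746 in HFD, and at 34 weeks 88.7, 329 and 771 in CD and 385, 908 and 1290 in HFD. Reads of Dnajb13, an opposite-strand gene that shares 305 bp (4.4%) with the Ucp2 exons, would be counted with Ucp2 if strand was ignored. The diets did not overlap at 20 weeks, 5 of 6 HFD mice were above every CD mouse at 8 weeks, and 4 of 6 were at 34 weeks.

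The difference of the means of log2(CPM + 1), HFD minus CD, was 1.62 ± 0.428 (SE) for Ucp2 at 8 weeks (limma adjusted p = 0.00291), 2.79 ± 0.428 at 20 weeks (adjusted p = 2.13e-06) and 1.51 ± 0.40 at 34 weeks (adjusted p = 0.00325). As a ratio of mean CPM, HFD stood 3.65, 6.22 and 2.47 times as high as CD. Leaving out any 1 of the 38 mice kept these calls, with the difference at 1.36 to 1.83, 2.61 to 3.07 and 1.27 to 1.72. Ordered by mean CPM, the groups ran from CD at 8 weeks (73.2 ± 20.8, SD) through CD at 20 weeks (96.7 ± 63.9), HFD at 8 weeks (267 ± 182), CD at 34 weeks (355 ± 226) and HFD at 20 weeks (602 ± 121) to HFD at 34 weeks (877 ± 331). Each neighbouring pair in that order overlapped.

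Ucp2 tracked the macrophage markers closely. Within groups, its log2 level correlated with the mean log2 level of the 15 macrophage markers at r = 0.88 over 38 mice, the highest of the 9 genes. The 3 genes whose pattern over the 38 mice was most like that of Ucp2 were Arhgap11a, Lat2 and Cerk, each at Pearson r = 0.99, and LAT2 is an adaptor protein of immune cells. All these values share libraries and composition and are descriptions. With the macrophage level as a covariate the diet difference of Ucp2 was 0.39 (adjusted p = 0.207), 0.88 (adjusted p = 0.0208) and 0.31 (adjusted p = 0.416) at 8, 20 and 34 weeks, so that the call remained at 20 weeks and was lost at 8 and 34. With progenitor and fibroblast markers as the covariate, chosen after seeing the data, the call of Ucp2 was lost at all 3 weeks (0.29, 0.50 and 0.57, adjusted p = 0.587, 0.592 and 0.223). With endothelial markers it remained at 20 weeks only (2.24, adjusted p = 0.000245). In these macrophage-covariate fits 33.8%, 22.0% and 10.2% of all genes tested were called at the 3 weeks. Since the macrophage level itself differed with diet, such a fit removes whatever the marker level shares with diet, and the part of macrophage RNA in the Ucp2 level was not tested.

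**Figure D2:**
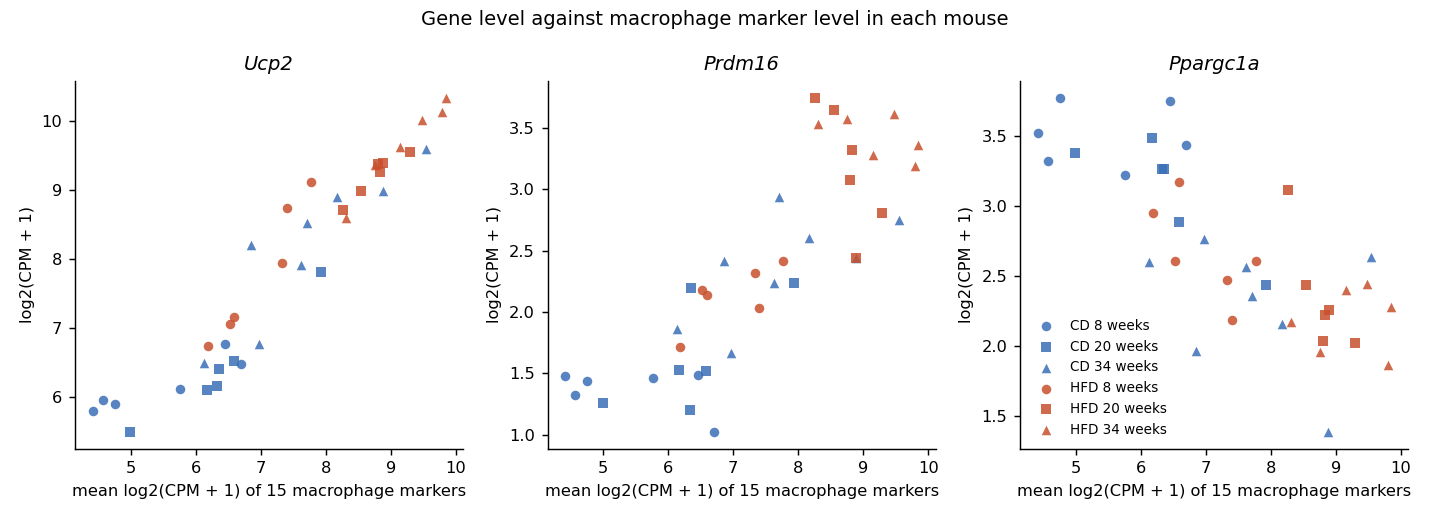
Level of Ucp2, Prdm16 and Ppargc1a in each mouse, log2(CPM + 1), against the mean log2(CPM + 1) of 15 macrophage markers in the same library, one point per mouse, coloured by diet and shaped by week. The Ucp2 points lie along one rising band (within-group r = 0.88), the Prdm16 points scatter more widely within a group (r = 0.29), and the Ppargc1a points fall (r = -0.40).

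Ucp3, the neighbour of Ucp2, followed it only in part. Both were called higher in HFD at 8 and 20 weeks, Ucp3 by less, and at 34 weeks Ucp3 was not called. The Ucp3 gene lies at chr7:100472990-100486432, and its end is 6904 bp upstream of the start of Ucp2, on the same strand and with no annotated gene between them. In CD the lowest, median and highest mouse had 12.2, 23.2 and 36.4 CPM of Ucp3 at 8 weeks, 7.03, 10.7 and 14.3 at 20 weeks, and 14.7, 25.3 and 28.9 at 34 weeks. HFD mice had 22.7, 32.0 and 71.1 CPM at 8 weeks, 11.1, 16.4 and 21.6 at 20 weeks, and 12.2, 20.4 and 30.3 at 34 weeks. The diets overlapped at every week.

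The diet difference of Ucp3 was 0.70 ± 0.25 (SE) at 8 weeks (limma adjusted p = 0.0229), 0.58 ± 0.25 at 20 weeks (adjusted p = 0.0486) and -0.24 ± 0.234 at 34 weeks (adjusted p = 0.407). The difference of the diet differences, 34 minus 8 weeks, was -0.94 ± 0.342 (adjusted p = 0.0361). These 3 calls were near the threshold. With TMM scaling (trimmed mean of M-values, which rescales each library so that most genes match) the adjusted p of Ucp3 was 0.0633 at 8 weeks and 0.223 at 20 weeks, and the 8-week call was also lost without CD mouse 1, CD mouse 6 or HFD mouse 2 of that week (adjusted p up to 0.0859). Median-of-ratios scaling and the count model edgeR also lost both calls. The 8-week call was further lost with only the groups compared. The 20-week call was further lost without the filter, with DESeq2 and with the mouse number as a replicate block. The 20-week call was lost in 22 of the 38 fits that left out 1 mouse, and the 34-minus-8 call in 9. Within groups Ucp3 correlated negatively with the macrophage markers (r = -0.46, against 0.88 for Ucp2).

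Ucp3 also differed by week. From 8 to 20 weeks it fell by 0.92 in CD (adjusted p = 0.0293) and by 1.04 in HFD (adjusted p = 0.00188), where all 6 mice at 20 weeks were below every mouse at 8 weeks. That HFD contrast called 36.5% of all genes, and the share with the 2 weeks fully apart was not counted. From 8 to 34 weeks Ucp3 fell by 0.76 in HFD (adjusted p = 0.0113; 0.0541 without HFD mouse 2 of 8 weeks), and in CD the difference was 0.18 (adjusted p = 0.499). The CD fall from 8 to 20 weeks was lost in 6 of the 38 fits without 1 mouse (adjusted p up to 0.114). With the macrophage level as a covariate the differences of Ucp3 from 8 weeks in HFD were -0.60 (adjusted p = 0.196) to 20 weeks and -0.20 (adjusted p = 0.648) to 34 weeks, and that in CD to 20 weeks was -0.68 (adjusted p = 0.0639). The genes most like Ucp3 over the 38 mice were Dtx2 and Fam53b (r = 0.80 each) and Cdc42ep1 (r = 0.78).

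Ucp1 was at or near 0 in most mice. In CD the lowest, median and highest mouse had 0, 0.0396 and 0.37 CPM at 8 weeks, 0, 0.15 and 0.28 at 20 weeks, and 0, 0.448 and 11.6 at 34 weeks. In HFD the values of Ucp1 were 0.0646, 0.253 and 3.41 CPM at 8 weeks, 0.38, 0.914 and 3.53 at 20 weeks, and 0.244, 2.23 and 45.5 at 34 weeks. At 20 weeks every HFD mouse had more Ucp1 than every CD mouse, though the HFD libraries held as few as 5 reads of it and no CD library more than 4, and at 8 and 34 weeks the diets overlapped. Of the 10343 genes above the filter, 37.2% also separated the diets at 20 weeks. No such share was counted for genes below the filter, Ucp1 among them.

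Tested without the filter on low values (21166 genes, of which 25.6% were called at 34 weeks), Ucp1 differed between diets by 0.47 ± 0.576 (SE) at 8 weeks (limma adjusted p = 0.62), 0.85 ± 0.576 at 20 weeks (adjusted p = 0.275) and 1.37 ± 0.539 at 34 weeks (adjusted p = 0.0578). A count model on the recovered reads called the 34-week difference (edgeR log2 fold change 2.48, adjusted p = 0.0253, with 42.9% of 12924 genes called, and DESeq2 adjusted p = 0.0453), and DESeq2 alone called the 20-week difference (adjusted p = 0.0299). The 34-week value of Ucp1 rested on single mice. Without HFD mouse 4 it was 0.70 (adjusted p = 0.29), and without CD mouse 5 it was 1.78 (adjusted p = 0.00458). From 8 to 34 weeks Ucp1 rose by 1.61 in HFD (adjusted p = 0.0306, with 30.6% of genes called), and this was lost without HFD mouse 4 (0.94, adjusted p = 0.156), without HFD mouse 2 of 34 weeks (1.38, adjusted p = 0.0819), and without any of 5 of the HFD mice of 8 weeks. With all mice, edgeR and DESeq2 also called this rise (log2 fold change 3.61 to 3.67, adjusted p from 0.00398 to 0.00511), beside 49.2% of genes with edgeR. The count models were not refitted without single mice. In CD the same difference of Ucp1 was 0.71 (adjusted p = 0.329) by limma, and without CD mouse 5 the limma value was 0.30 (adjusted p = 0.691). With all mice, edgeR and DESeq2 called it (adjusted p = 0.0164 and 0.00164), beside 60.7% of genes with edgeR.

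The mice with the most Ucp1 were chosen after their values were seen. In the top 2, HFD mouse 4 and CD mouse 5 of 34 weeks, Ucp2 and the macrophage marker sum were the highest of their groups, and they differed in the other genes. HFD mouse 4 at 34 weeks had 45.5 CPM of Ucp1 (506 reads), against 9.0 CPM or less in the other 5 mice of its group. The same mouse had the highest level of its group for Cidea (25.2 CPM, 9.78 or less in the others), Elovl3 (1.98 CPM), Cox8b (29.4 CPM) and Cox7a1 (9.08 CPM), of which Cox8b and Cox7a1 encode respiratory chain subunits known as brown fat markers. It also had the highest Ucp2 of its group (1290 CPM) and the highest macrophage (22400 CPM) and erythroid (198 CPM) marker sums of all 38 libraries, while its Prdm16 (9.26 CPM) ranked 4 of 6 and its Dio2 (1.98 CPM) 5 of 6. CD mouse 5 at 34 weeks, with 11.6 CPM of Ucp1 (136 reads), had the highest Ucp2 (771 CPM) of its group, the lowest Ucp3 (14.7 CPM) and the lowest Adipoq (3440 CPM). Its macrophage sum (16800 CPM) was the highest and its adipocyte sum (37700 CPM) the lowest of its group, its progenitor and fibroblast sum (2180 CPM) was the highest of all 38 libraries, and its Cidea (5.65 CPM) ranked 3 of 8. HFD mouse 2 at 34 weeks, with 9.0 CPM of Ucp1, ranked 3 of 6 for Ucp2 and for Cidea and 4 of 6 for Cox8b. HFD mouse 2 at 20 weeks, with 3.53 CPM of Ucp1, ranked 5 of 6 for Ucp2 and 2 of 6 for Cidea and for Cox8b. In HFD mouse 1 at 8 weeks, with 3.41 CPM of Ucp1, Ucp2 was the lowest of the group (106 CPM) and Cidea the highest (4.28 CPM).

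Ppargc1a was lower in HFD at 8 and 20 weeks. Its gene lies at chr5:51454250-51567726 on the minus strand. At 8 weeks the lowest, median and highest CD mouse had 8.34, 10.2 and 12.7 CPM, against 3.55, 5.10 and 8.03 in HFD, and no mouse of one diet reached the other. At 20 weeks the values were 4.41, 8.63 and 10.2 CPM in CD and 3.06, 3.74 and 7.66 in HFD, where 5 of the 6 HFD mice were below every CD mouse, and at 34 weeks 1.62, 4.54 and 5.79 CPM in CD and 2.65, 3.68 and 4.46 in HFD.

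The diet difference of Ppargc1a was -0.84 ± 0.206 (SE) at 8 weeks (limma adjusted p = 0.00166), -0.77 ± 0.206 at 20 weeks (adjusted p = 0.00192) and -0.12 ± 0.193 at 34 weeks (adjusted p = 0.634), the last with a 95% interval from -0.51 to 0.27. CD mice came down towards the HFD level with the weeks: from 8 to 34 weeks Ppargc1a fell by 1.2 in CD (adjusted p = 3.51e-06), and all 8 CD mice at 34 weeks were below every CD mouse at 8 weeks. That CD contrast called 64.7% of all genes, and the share with the weeks fully apart was not counted. In HFD the difference of Ppargc1a over the same weeks was -0.48 (adjusted p = 0.0499), a call lost in 26 of the 38 fits without 1 mouse. The change of the diet difference itself from 8 to 34 weeks, 0.72 ± 0.283, did not pass (adjusted p = 0.0521).

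By mean CPM, Ppargc1a was ordered CD at 8 weeks (10.5 ± 1.79, SD), CD at 20 (7.95 ± 2.15), HFD at 8 (5.51 ± 1.61), HFD at 20 (4.29 ± 1.72), CD at 34 (4.15 ± 1.40) and HFD at 34 (3.61 ± 0.73), and each neighbouring pair overlapped. Genes most like it over the 38 mice were Tbc1d31 (r = 0.90), Por and Cul4b (r = 0.89 each), and POR is the electron donor of the microsomal cytochromes P450. With the macrophage level as a covariate the diet difference of Ppargc1a was -0.58 (adjusted p = 0.0403) at 8 weeks and -0.36 (adjusted p = 0.316) at 20 weeks. With endothelial markers in its place, a covariate chosen after seeing the data, it was -0.52 (adjusted p = 0.0888) and -0.50 (adjusted p = 0.0653). With progenitor and fibroblast markers, also chosen after seeing the data, it was -0.40 (adjusted p = 0.178) and -0.02 (adjusted p = 0.976), so the call at 20 weeks was lost with each covariate and the call at 8 weeks with 2 of the 3.

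Ppargc1b did not pass the test of diet at any week. It had medians of 4.45 CPM in CD and 4.01 in HFD at 8 weeks, 2.05 and 3.29 at 20 weeks, and 6.74 and 5.75 at 34 weeks, within ranges of 1.59 to 5.02 and 2.29 to 8.26, 1.41 to 4.61 and 1.90 to 4.03, and 5.71 to 9.84 and 4.77 to 6.60 CPM. The diet differences were 0.17, 0.27 and -0.28, with 95% intervals of -0.29 to 0.62, -0.18 to 0.72 and -0.70 to 0.14. From 8 to 20 weeks Ppargc1b and Ppargc1a differed by like amounts that did not pass (-0.41 and -0.38 in CD, -0.30 and -0.32 in HFD). From 8 to 34 weeks in CD Ppargc1b rose by 0.88 ± 0.209 (SE, limma adjusted p = 0.00046) while Ppargc1a fell, with all 8 mice at 34 weeks above every mouse at 8 weeks. How many of all genes had these weeks fully apart was not counted, and 64.7% were called. In HFD that difference of Ppargc1b was 0.44 (adjusted p = 0.0991). Over the 38 mice it was most like Dolpp1 (r = 0.87), Rasd1 and G0s2 (r = 0.83 each), and the G0S2 protein inhibits the triglyceride lipase ATGL.

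Prdm16 was higher in HFD at all 3 weeks, and the diets were fully apart at each of them, which held for no other of the 6 tested genes. Its gene lies at chr4:154316125-154636873 on the minus strand. The lowest, median and highest CD mouse had 1.03, 1.73 and 1.81 CPM at 8 weeks, 1.30, 1.88 and 3.71 at 20 weeks and 2.17, 4.37 and 6.65 at 34 weeks. HFD mice had 2.27, 3.47 and 4.33 CPM of Prdm16 at 8 weeks, 4.42, 8.20 and 12.4 at 20 weeks and 8.11, 9.92 and 11.2 at 34 weeks. At 34 weeks only 2.46% of all genes tested separated the diets in this way, against 22.8% at 8 weeks and 37.2% at 20 weeks.

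The diet difference of Prdm16 was 0.76 ± 0.208 (SE) at 8 weeks (limma adjusted p = 0.00371), 1.51 ± 0.208 at 20 weeks (adjusted p = 4.87e-07) and 1.06 ± 0.194 at 34 weeks (adjusted p = 0.000124), or 2.15, 3.69 and 2.26 times the mean CPM of CD. The counts behind it were low, 13 to 82 reads per CD library and 34 to 175 per HFD library. Prdm16 also rose from 8 to 34 weeks, by 0.99 in CD (adjusted p = 5.13e-05) and by 1.29 in HFD (adjusted p = 9.29e-06), and from 8 to 20 weeks by 1.04 in HFD (adjusted p = 0.000415). Ordered by mean CPM, the groups were CD at 8 weeks (1.60 ± 0.30, SD), CD at 20 (2.29 ± 1.08), HFD at 8 (3.44 ± 0.717), CD at 34 (4.34 ± 1.51), HFD at 20 (8.46 ± 3.12) and HFD at 34 (9.80 ± 1.28), the same order as for Ucp2, with an overlap between each neighbouring pair.

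The 3 genes most like Prdm16 over the 38 mice were Ntn1, Tmc6 and Fstl1 (r = 0.91 each), and within groups these correlations were 0.58, 0.53 and 0.52. NTN1 is netrin-1, a guidance protein that adipose macrophages are known to make, and FSTL1 is a secreted protein of mesenchymal cells. The within-group correlation of Prdm16 with the macrophage markers was 0.29. With the macrophage level as a covariate its diet difference was 0.57 (adjusted p = 0.0516) at 8 weeks, 1.21 (adjusted p = 0.00159) at 20 weeks and 0.88 (adjusted p = 0.00931) at 34 weeks. The call at 20 and 34 weeks also remained with endothelial markers (1.44 and 0.99) and with progenitor and fibroblast markers (1.23, adjusted p = 0.0284, and 0.95, adjusted p = 0.0049), covariates chosen after seeing the data. At 8 weeks it was lost with progenitor and fibroblast markers (0.60, adjusted p = 0.0754). In the endothelial fits 23.4%, 41.7% and 17.0% of all genes were called at 8, 20 and 34 weeks, and in the progenitor and fibroblast fits 25.4%, 3.30% and 12.3%. Counting that ignored strand would also give Prdm16 the reads of B230104I21Rik, an opposite-strand gene that shares 109 bp with its exons, and the strand setting is not given in the sources used here.

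**Figure D3:**
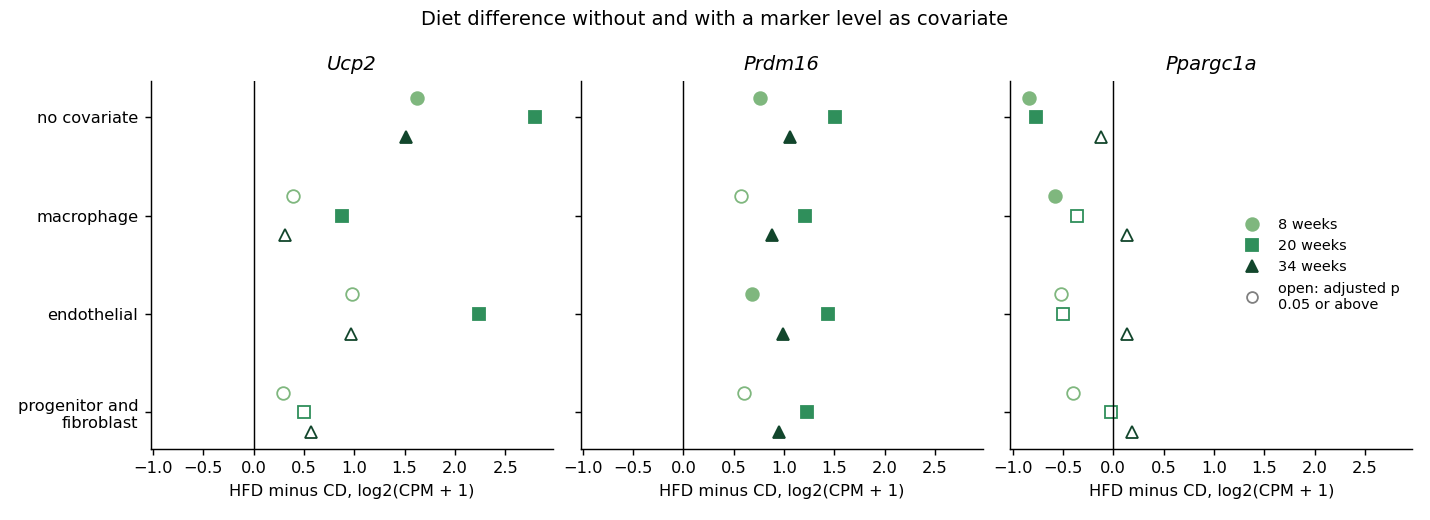
Diet difference (HFD minus CD, log2(CPM + 1)) of Ucp2, Prdm16 and Ppargc1a at 8, 20 and 34 weeks without a covariate and with the mean level of macrophage, endothelial, or progenitor and fibroblast markers in the fit. Filled symbols have an adjusted p under 0.05: Prdm16 at 20 and 34 weeks stays filled in every row, from 1.21 to 1.51 and from 0.88 to 1.06, while Ucp2 at 8 and 34 weeks is filled in the top row only and at 20 weeks is open with progenitor and fibroblast markers (0.50).

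Dio2 had few reads, 3 to 47 per library. Its gene lies at chr12:90724552-90738438 on the minus strand. In CD its lowest, median and highest values were 0.408, 0.775 and 1.30 CPM at 8 weeks, 0.968, 1.16 and 1.59 at 20 weeks and 0.915, 1.62 and 2.5 at 34 weeks, and in HFD 0.227, 1.28 and 2.52 CPM, 0.78, 1.46 and 2.07, and 1.49, 3.24 and 3.86. The diets overlapped at every week. Without the filter, the diet difference of Dio2 was 0.29 (limma adjusted p = 0.32), 0.13 (adjusted p = 0.685) and 0.48 (adjusted p = 0.0598) at 8, 20 and 34 weeks. From 8 to 34 weeks it rose by 0.60 ± 0.188 (SE) in CD (adjusted p = 0.0106, with 38.5% of the 21166 genes called) and by 0.78 ± 0.201 in HFD (adjusted p = 0.00266). edgeR called both rises (0.98, adjusted p = 0.0135, and 0.99, adjusted p = 0.0134), beside 60.7% and 49.2% of all genes in CD and HFD.

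Elovl3 was the lowest of the 9 genes. Its gene lies at chr19:46131897-46135694 on the plus strand, and no library held more than 22 reads of it. Its medians were 0.0441 CPM in CD and 0.17 in HFD at 8 weeks, 0 and 0.24 at 20 weeks, and 0.417 and 0.453 at 34 weeks, and the highest mouse of those groups had 0.172, 0.904, 0.292, 0.76, 0.893 and 1.98 CPM. The diet difference of Elovl3 did not pass at any week without the filter (0.22, 0.26 and 0.07, limma adjusted p = 0.391, 0.27 and 0.864). In CD it rose by 0.48 ± 0.163 (SE) from 8 to 34 weeks (adjusted p = 0.0192), and every CD mouse at 34 weeks held at least 2 reads while none at 8 weeks held more than 2.

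Cidea was called between diets at 34 weeks only, and that call depended on the fit. It had 1.43, 2.76 and 6.21 CPM in the lowest, median and highest CD mouse and 1.44, 1.87 and 4.28 in HFD at 8 weeks, and 4.24, 5.51 and 14 CPM in CD and 5.32, 8.10 and 11.5 in HFD at 20 weeks. At 34 weeks the values of Cidea were 2.80, 5.46 and 8.30 CPM in CD and 4.14, 8.75 and 25.2 in HFD, and 5 of the 6 HFD mice were above every CD mouse. The diet difference was -0.14 at 8 weeks (limma adjusted p = 0.72), 0.32 at 20 weeks (adjusted p = 0.371) and 0.75 ± 0.28 (SE) at 34 weeks (adjusted p = 0.0297). The 34-week call was lost with TMM scaling (adjusted p = 0.0622), without HFD mouse 4 and without CD mouse 8 (difference 0.49 to 0.96 over all fits without 1 mouse, adjusted p up to 0.14), and with the endothelial (0.62, adjusted p = 0.175) or the progenitor and fibroblast covariate (0.87, adjusted p = 0.0644). It was also lost with median-of-ratios scaling, with only the groups compared, and with the mouse number as a replicate block.

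By week, Cidea rose in HFD by 1.39 ± 0.30 (SE) from 8 to 20 weeks (limma adjusted p = 0.000752), with all 6 mice at 20 weeks above every mouse at 8 weeks, and by 1.63 from 8 to 34 weeks (adjusted p = 4.44e-05). From 8 to 20 weeks in HFD 36.5% of all genes were called, and the share with the weeks fully apart was not counted. In CD Cidea rose by 0.74 from 8 to 34 weeks (adjusted p = 0.0207), a call lost without CD mouse 3 or CD mouse 6 of 8 weeks (adjusted p up to 0.0644) and with TMM scaling (adjusted p = 0.0524), edgeR (0.0793), DESeq2 (0.0654) or array weights (0.0506). The genes most like Cidea over the 38 mice were Hadha and Cox8b (r = 0.70 each) and Gpi1 (r = 0.66). HADHA is a subunit of the mitochondrial trifunctional protein of fatty acid oxidation, and within groups the correlation with Cox8b was 0.73 and that with Hadha 0.41.

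Taking the 6 tested genes as a set, 4 were called between diets at 8 weeks, beside 44.9% of all genes tested, 4 at 20 weeks, beside 57.0%, and 3 at 34 weeks, beside 43.2%. At 8 and 20 weeks 3 were higher (29.8% and 38.3% of all genes) and 1 was lower (15.1% and 18.7%), and at 34 weeks all 3 were higher (27.5%, with 15.7% lower). The median diet difference of the 6 genes was 0.43, 0.45 and 0.32, against 0.11, 0.14 and 0.07 over all genes. The higher genes made up 66.3%, 67.1% and 63.6% of all called genes at 8, 20 and 34 weeks. Neither the number nor the direction of the calls among the 6 genes stood apart from the background at 8, 20 or 34 weeks. Diets without overlap were found for 2 of the 6 genes at 8 weeks (Prdm16 and Ppargc1a), beside 22.8% of all genes tested. At 20 weeks the diets were apart for 2 (Ucp2 and Prdm16), beside 37.2%, and at 34 weeks for 1 (Prdm16), beside 2.46%.

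**Figure D4:**
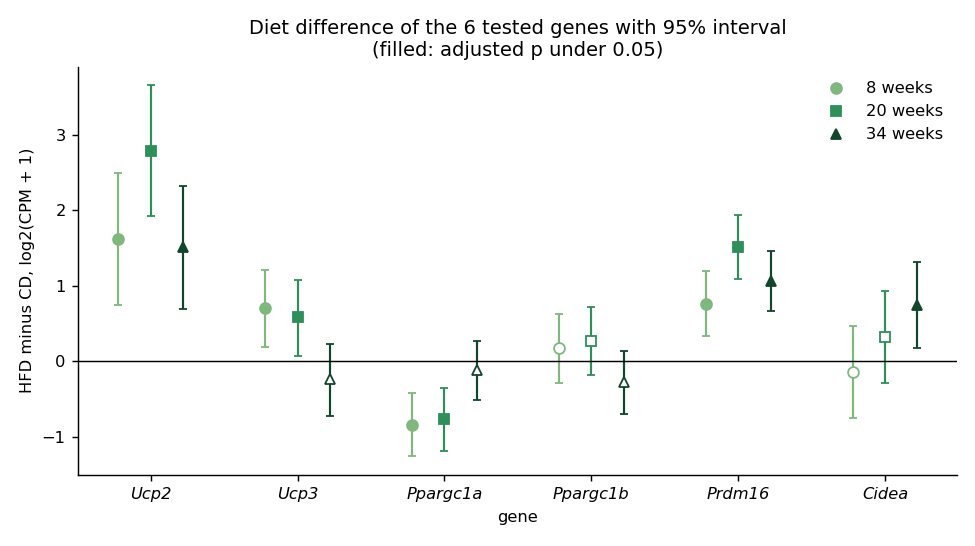
Diet difference (HFD minus CD, log2(CPM + 1)) of the 6 tested genes at 8, 20 and 34 weeks with 95% intervals, filled where the adjusted p is under 0.05. Ucp2 reaches 2.79 at 20 weeks, Prdm16 is filled at all 3 weeks, and Ppargc1a lies below 0 at 8 weeks (-0.84) and 20 weeks (-0.77).

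Across weeks, 1 of the 6 genes was called in CD from 8 to 20 weeks (Ucp3, beside 3.58% of all genes) and 5 from 8 to 34 weeks (64.7%). In HFD 4 were called from 8 to 20 weeks (36.5%) and 5 from 8 to 34 weeks (52.5%). Ucp2 rose by 2.00 in CD from 8 to 34 weeks (limma adjusted p = 6.88e-05) and by 1.42 and 1.88 in HFD from 8 to 20 and 34 weeks (adjusted p = 0.0103 and 0.000469). With the macrophage level as a covariate these 3 differences of Ucp2 were 0.15 (adjusted p = 0.657), -0.04 (adjusted p = 0.959) and 0.06 (adjusted p = 0.884). The contrasts of CD at 34 weeks with CD at 8 weeks and of HFD with CD at 8 weeks share the CD mice of 8 weeks. For the change of the diet difference between weeks, 0 of the 6 genes were called for 20 minus 8 weeks (4.49% of all genes) by limma, edgeR or DESeq2, with 1 at an unadjusted p under 0.05, and 0 for 34 minus 20 weeks (10.5%) by the same tools, with 3 at an unadjusted p under 0.05. For 34 minus 8 weeks 1 was called (Ucp3, 28.8%) by limma and 1 by DESeq2, but 0 by edgeR.

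The wider pathways were counted from 8 lists of related genes. Each list stands beside the background over all genes tested: at 8 weeks 29.8% rose with HFD and 15.1% fell, at 20 weeks 38.3% and 18.7%, and at 34 weeks 27.5% and 15.7%, with medians of 0.11, 0.14 and 0.07. Of 14 tested brown and beige fat markers other than the 9 genes, 6 were higher and 4 lower in HFD at 8 weeks, 7 and 4 at 20 weeks, and 3 and 1 at 34 weeks, with medians of 0.41, 0.47 and -0.06. They did not move one way. Otop1, a proton channel, stood at 0.112 CPM in CD and 6.77 in HFD at 8 weeks and at 0.194 and 9.09 at 20 weeks (differences 2.16 and 3.00, limma adjusted p = 0.000906 and 6.87e-06), and Slc29a1, a nucleoside transporter, rose at all 3 weeks (1.55, 2.64 and 1.44). Cox7a1 rose at 8 and 20 weeks (1.39 and 1.12). In contrast, Nrg4, a secreted growth factor of brown fat, fell by 1.35 at 20 weeks (139 CPM in CD and 52.2 in HFD, adjusted p = 0.000448), and Ebf2, a transcription factor of brown fat cell identity, fell by 0.93, 0.77 and 0.60 at 8, 20 and 34 weeks. Acot2, a mitochondrial thioesterase, fell by 1.12 and 0.90 at 8 and 20 weeks, Ppara, the fatty acid sensing nuclear receptor, fell by 0.80 and 0.52, and Cox8b did not pass at any week.

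Among 22 tested PGC-1 partners and targets, 7 were lower and 15 did not pass at 8 weeks, 8 were lower and 2 higher at 20 weeks, and 6 were lower and 5 higher at 34 weeks, with medians of -0.23, -0.22 and -0.17. Vegfa, the angiogenic factor that PGC-1α can induce, fell at all 3 weeks, by 0.96 at 34 weeks (363 CPM in CD and 184 in HFD, adjusted p = 7e-05), while the acetyltransferase gene Kat2a rose by 0.33 at 20 weeks (adjusted p = 0.0101). Among 15 tested partners of PRDM16, 2 were higher and 6 lower at 8 weeks, 5 and 4 at 20 weeks, and 4 and 3 at 34 weeks. Zfp516 rose by 0.58 at 20 weeks (adjusted p = 0.00354), and Nfia, a transcription factor of the brown fat programme, fell by 0.84, 1.10 and 0.97 at the 3 weeks. Partners of PRDM16 thus went either way while Prdm16 itself was higher.

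Of 12 tested genes for other ways of spending energy or leaking protons, 6 were higher and 1 lower at 8 weeks, 7 were higher and 5 did not pass at 20 weeks, and 6 were higher and 2 lower at 34 weeks. Ryr2, a calcium release channel, had the largest rise (3.24 at 20 weeks, 1.81 CPM in CD and 24.3 in HFD, adjusted p = 6.53e-07). Of 8 tested genes of thyroid hormone handling other than Dio2, 4 were lower and 4 did not pass at 8 weeks, and at 20 and 34 weeks 1 was higher and 4 and 3 were lower. Thrsp, a lipogenic gene that responds to thyroid hormone, fell by 2.14 at 34 weeks (1630 CPM in CD and 343 in HFD, adjusted p = 1.93e-05), while Hr, a corepressor of the thyroid hormone receptor, rose by 1.01 at 20 weeks (adjusted p = 0.00492).

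Of 5 tested fatty acid elongases and their partners, 2 were higher and 3 did not pass at 8 weeks, 1 was higher and 1 lower at 20 weeks, and 1 was higher and 2 lower at 34 weeks. Elovl1 rose at all 3 weeks (0.68, 1.18 and 0.47), and Hsd17b12 fell by 0.34 at 20 weeks (adjusted p = 0.0345). The falls at 34 weeks were larger: Elovl6, which elongates palmitate, fell by 2.51 (123 CPM in CD and 15.9 in HFD, adjusted p = 5.22e-05), and Tecr, the reductase of the elongation cycle, fell by 0.60 (adjusted p = 0.0015) after a rise of 0.51 at 8 weeks. Of 9 tested CIDE and lipid droplet genes, 2 were higher and 1 lower at 8 weeks, 2 and 5 at 20 weeks, and 2 and 4 at 34 weeks. Cidec, the CIDE gene of white adipocytes, fell by 0.85 at 20 weeks (6290 CPM in CD and 3420 in HFD, adjusted p = 0.000319) and by 0.50 at 34 weeks, whereas the droplet coat gene Plin2 rose by 1.46 at 20 weeks (adjusted p = 1.05e-06). Of 18 tested genes of beta-adrenergic input, 4 were higher and 2 lower at 8 weeks, 6 and 2 at 20 weeks, and 8 and 4 at 34 weeks. Adrb3, the adipocyte receptor upstream of the thermogenic programme, fell by 1.68 at 20 weeks and by 2.77 at 34 weeks (542 CPM in CD and 71.8 in HFD, adjusted p = 7.91e-08), and the adenylate cyclase gene Adcy3 rose at all 3 weeks, by 1.74 at 20 weeks (28.9 CPM in CD and 99.1 in HFD, adjusted p = 4.87e-07). Directions here are on the deposited scale: TMM scaling lowered the median of all genes by 0.10, 0.21 and 0.09 at 8, 20 and 34 weeks, and the share of called genes that were higher in HFD went from 66.3%, 67.1% and 63.6% to 51.3%, 44.7% and 51.9%.

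**Figure D5:**
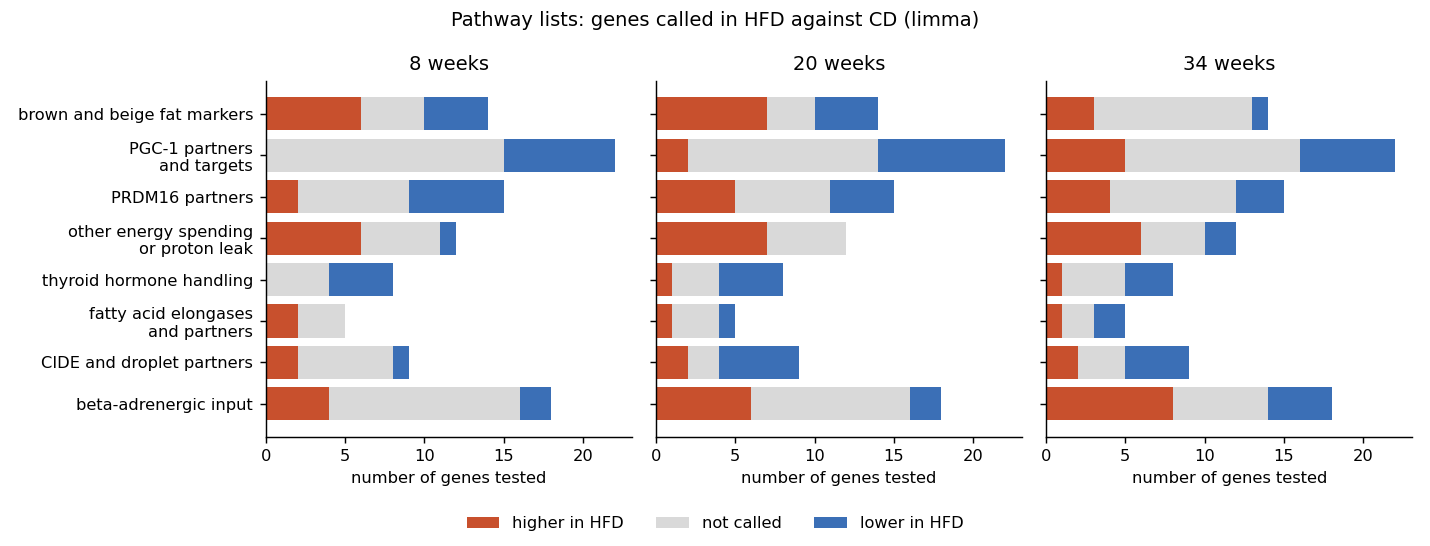
Number of genes called higher in HFD, not called, or called lower in HFD (limma, adjusted p under 0.05) in each of 8 lists of related genes at 8, 20 and 34 weeks. The list of PGC-1 partners and targets holds 7 lower genes of 22 at 8 weeks and 8 at 20 weeks, and the list of beta-adrenergic input goes from 4 to 8 higher genes of 18 between 8 and 34 weeks.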

How the data were processed

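The authors aligned stranded mRNA reads to GRCm38 (STAR 2.5 per the methods, 2.5.2b also in the submitters' processing notes), counted them over GENCODE vM2 exons with featureCounts, merged 3 technical replicates per mouse and deposited CPM for 29132 genes with an Entrez identifier. Each deposited CPM column sums to 1e+06, so no TMM factor was visible. Every value was a whole number of reads within 0.1 read. Here log2(CPM + 1) was tested with limma 3.58.1 (R 4.3.3) over 6 groups in 1 fit (32 residual degrees of freedom), with Benjamini-Hochberg adjustment over 10343 genes and a threshold of 0.05. Low genes were also tested without the filter. edgeR 4.0.16 and DESeq2 on the recovered reads, other scalings and filters, mice left out in turn, and marker covariates were the alternatives. The mouse was the replicate. No pair of libraries within a group agreed within sampling noise (103 pairs). Coordinates are from a GENCODE annotation of GRCm38, sequences from RefSeq. Named pathway genes were those with the largest called rise and fall of a list at 20 weeks. Others (Slc29a1, Cox7a1, Cox8b, Ebf2, Acot2, Ppara, Elovl6, Tecr) were chosen after their values were seen. The genes and lists were chosen with earlier results of these data known. The limma fit was tested on simulated counts with known changes, for HFD against CD at 20 weeks only. The other fits were not tested in this way.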

Additional observations from a re-analysis of the deposited data

Results flagged for a closer look

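Of the 54 combinations of gene and group, 12 held a mouse far from the other mice of its group. No chance rate can be set beside that count, because CPM near 0 are skewed and some of these values come from the same mouse. Ucp1 accounted for 5 of the 12, with a highest mouse of 0.37 CPM in CD (4 reads) and 3.41 in HFD at 8 weeks, 3.53 in HFD at 20 weeks, 11.6 in CD and 45.5 in HFD at 34 weeks. The highest Cidea mouse stood apart in CD at 8 weeks (6.21 CPM), in CD at 20 weeks (14 CPM) and in HFD at 34 weeks (25.2 CPM), the last in the same mouse as the highest Ucp1. Others were the highest Ucp2 in CD at 20 weeks (223 CPM, the next mouse at 91.4), the lowest Ucp3 in CD at 34 weeks (14.7 CPM), the highest Ppargc1a in HFD at 20 weeks (7.66 CPM) and the highest Elovl3 in HFD at 8 weeks (0.904 CPM). In the reported fit the diet difference of Ucp3 changed by -0.94 for 34 minus 8 weeks on the log2 scale (limma adjusted p = 0.0361). That call was lost in 9 of the 38 fits without 1 mouse. It was also lost without a filter, with TMM, edgeR, only the groups compared, the replicate block or array weights.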

How the results depend on the processing

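The calls of Ucp2, Ppargc1a and Prdm16 between diets kept direction and side of the threshold under other pseudocounts, filters, scalings and count models and without any 1 mouse, and the exceptions were the marker covariates. Ucp1, Dio2 and Elovl3 rest on few reads. The number of the 6 genes called between diets was 2, 2 and 1 at 8 weeks with the macrophage, endothelial, and progenitor and fibroblast covariate (4 without), 2 at 20 weeks with the progenitor covariate (4 without), and 1 at 34 weeks with the endothelial or progenitor covariate (3 without). From 8 to 20 weeks in CD 2 were called with DESeq2 or array weights and 0 with the replicate block or the endothelial covariate (1 in the reported fit), in HFD 2 with the macrophage or progenitor covariate (4), and from 8 to 34 weeks in HFD 2 with the macrophage covariate and 3 with array weights (5). For the change of the diet difference, array weights called 2 for 20 minus 8 weeks (0), array weights 2 and the macrophage or progenitor covariate 1 for 34 minus 20 weeks (0), and for 34 minus 8 weeks (1) 0 were called without a filter, with TMM, with edgeR, with only the groups compared or with the replicate block, and 2 with the macrophage or endothelial covariate or array weights. For 34 minus 8 weeks the 2 genes called with array weights were Ppargc1a and Cidea, and Ucp3 was not called there. The mouse numbers only name mice: over 90 pairs of groups and numbers the deviations correlated at -0.676 to 0.55 (median -0.068), so the replicate block was no pairing.

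Without 1 mouse the count called was 3 to 4 at 8 and at 20 weeks and 2 to 3 at 34 weeks, 0 to 2 from 8 to 20 weeks in CD, 4 to 5 from 8 to 34 weeks in CD and in HFD, 4 to 4 from 8 to 20 weeks in HFD, and 0 to 1, 0 to 1 and 0 to 2 for the changes of the diet difference, and diets without overlap numbered 2 to 3 at 8 and 20 weeks and 1 to 2 at 34 weeks. Over all genes, array weights called 7032, 7599 and 4103 genes between diets and the macrophage covariate 3493, 2278 and 1056, against 4648, 5894 and 4468.

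Directions turned in the following, none of which was called in the reported fit except Ucp2 from 8 to 20 weeks in HFD, and the cause was not tested. Ucp1 changes of the diet difference were -0.03 and -0.03 (20 minus 8 weeks), -0.36 and -0.44 (34 minus 20) and -0.39 and -0.47 (34 minus 8) with edgeR and DESeq2, and -0.15 (without HFD mouse 4) to 0.93 for 34 minus 20 without 1 mouse. Ucp2 was -0.52 (macrophage), 0 (progenitor) or -0.03 to 0.43 (without 1 mouse, the lowest without CD mouse 1 of 20 weeks) from 8 to 20 weeks in CD, -0.04 in HFD (macrophage), and 0.07 and 0.28 (progenitor) for 34 minus 20 and 34 minus 8 weeks, the last at -0.36 to 0.15 without 1 mouse. Ucp3 was 0.12, 0.13 and 0.22 at 34 weeks with the 3 covariates, and 0.09 and 0.36 for 20 minus 8 weeks (macrophage, progenitor), with -0.28 to 0.08 without 1 mouse. Ppargc1a was 0.14, 0.14, 0.19 and 0 at 34 weeks with the covariates and array weights, 0.08 from 8 to 20 weeks in HFD (progenitor), and -0.02, -0.05 and -0.04 for 20 minus 8 weeks with TMM, edgeR and DESeq2, with -0.09 to 0.17 without 1 mouse. Without 1 mouse, Ppargc1b was -0.01 to 0.29 at 8 weeks and -0.02 to 0.28 for 20 minus 8 weeks, and Dio2 -0.05 to 0.25 from 8 to 20 weeks in HFD, the lowest of each without a mouse of HFD at 8 weeks. Elovl3 was -0.17 for 20 minus 8 weeks with DESeq2, and without 1 mouse -0.05 to 0.16 for that change, -0.12 to 0.19 at 34 weeks, and -0.04 to 0.04 in CD and -0.04 to 0.18 in HFD from 8 to 20 weeks. Cidea at 8 weeks was 0.15 and 0.03 with the macrophage and progenitor covariates and -0.27 to 0.05 without 1 mouse, the highest without CD mouse 4.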
